A study of Mus musculus with 18 samples.

Results

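Prefrontal cortex from 5xFAD mice treated with extracellular vesicles (EV) was compared with prefrontal cortex from wildtype mice, to describe which transcripts still differed from wildtype after the course of treatment. The comparison rests on 6 of the 18 libraries of the series, 3 from 5xFAD mice given EV and 3 from wildtype mice given phosphate-buffered saline (PBS), and on 13055 of 18683 listed genes. The genes tested had at least 0.5 FPKM (fragments per kilobase of gene length, scaled to the fragments counted in the library) in at least 3 of the 9 prefrontal cortex libraries. The EV group consisted of male 5xFAD mice on C57BL/6J that received vesicles isolated from human breast milk. A group of male 5xFAD mice given PBS (3 libraries) was set beside it, and the wildtype group consisted of male C57BL/6J mice given PBS. All groups were injected into a vein 10 times at intervals of 3 days, beginning at 5 months of age and ending at 6 months, and were taken after behavioural tests and perfusion. Extracellular vesicles are membrane-bound particles that cells release and that carry proteins, lipids and RNA. 5xFAD is a transgenic model in which mutated human transgenes, APP among them, are driven in neurons by Thy1 promoter sequence, so that amyloid plaques form early, and it models familial disease by overexpression. The labels do not say whether the 3 replicates of a group were separate mice, so that the p-values measure only how far these samples spread, and that spread may be technical.

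Microglia are the resident macrophages of the brain. Around amyloid plaques they enter a state called disease-associated, in which the lipid receptor Trem2 signals through the adaptor Tyrobp, genes for phagocytosis, lysosomal breakdown and lipid handling are switched on, and genes of the resting, homeostatic state are usually turned down. Immediate early genes behave in another way: neurons transcribe them within minutes of synaptic activity, and their products are transcription factors, phosphatases that dampen signalling, and proteins that act at the synapse. In bulk tissue a lower or higher level can come from a change in the number of cells of a type or in the RNA per cell, and these cannot be told apart here.

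The prefrontal cortex libraries held 30581316 to 36365571 reads in listed genes, as read back from the FPKM values, so that a single read amounted to 0.00855 to 0.0102 FPKM for a gene of median length. EV replicate 3 stood apart from the other 8. It scored 38.7 on the first principal component (37.7% of the variance), against -17.2 to 2.7 in the others, and 446 genes in it lay over 2-fold from the wildtype mean, against 93 to 166 in the other 5xFAD libraries. The 16 markers of cerebellar neurons, a list put together after the data had been seen, summed to 1267 FPKM in this library and to 85.9 to 98.6 FPKM in the other 8, and all 16 were higher there than in any other of the 18 libraries. Pcp2, a Purkinje cell gene, stood at 177 FPKM in it against 0 to 0.350 FPKM elsewhere in prefrontal cortex, and Gabra6, a receptor subunit of cerebellar granule cells, at 89.8 against 0.00915 to 0.133 FPKM. The 13 choroid plexus markers summed to 1059 FPKM in it against 65.0 to 85.4 FPKM in the other 8, with the thyroid hormone carrier Ttr at 836 against 1.56 to 11.6 FPKM. The main counts of calls are therefore also given without this library. Markers of striatal neurons varied within every group (114, 652 and 218 summed FPKM in EV libraries, 381 to 546 in 5xFAD PBS and 245 to 714 in wildtype), as did red cell genes (65.6, 13.2 and 54.6 in EV, 1.79 to 26.0 in 5xFAD PBS and 3.87 to 69.4 in wildtype). Markers of neocortical layers were present in all 9 libraries, at 690.0 to 992 summed FPKM.

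**Figure D1:**
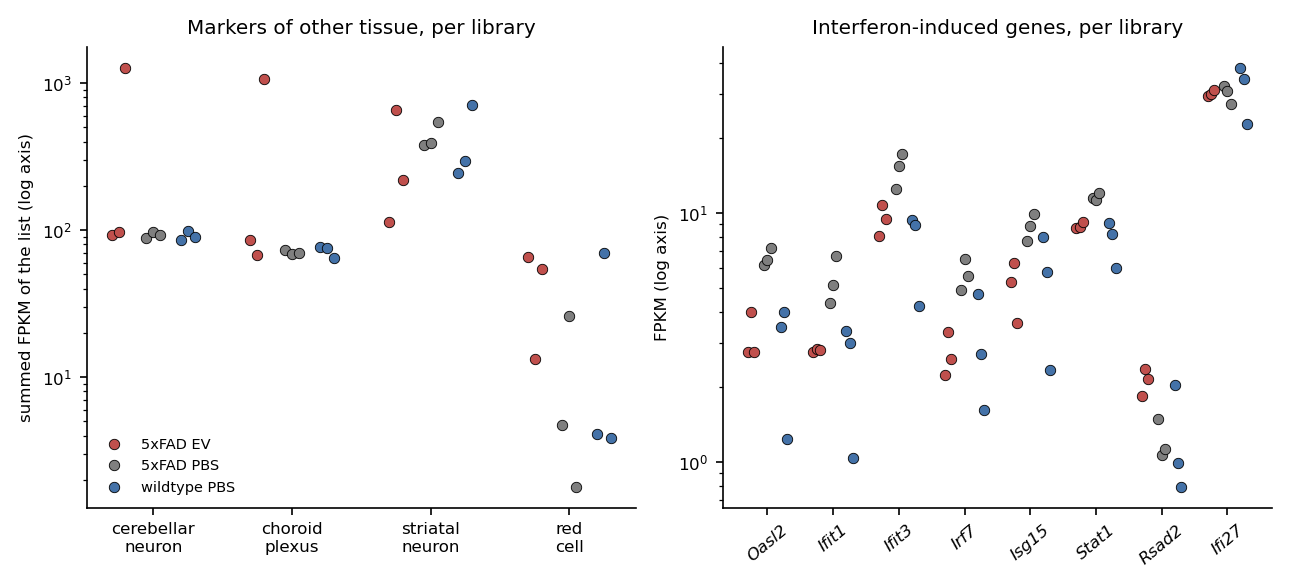
Left, summed FPKM (log axis) of 4 marker lists in each prefrontal cortex library, with 5xFAD EV left, 5xFAD PBS in the middle and wildtype right; 1 EV library reaches 1267 FPKM for cerebellar neuron markers and 1059 FPKM for choroid plexus markers. Right, FPKM (log axis) of 8 interferon-induced genes in the same libraries, where wildtype replicate 3 is the lowest point for all 8.

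Against wildtype, 198 of the 13055 genes (1.52%) were called in EV-treated 5xFAD cortex at an adjusted p under 0.05 (limma on log2(FPKM + 0.5), Benjamini-Hochberg over all genes tested). Of these 183 (1.40%) were higher and 15 (0.115%) were lower, and 73 changed over 2-fold. The groups did not overlap in any of the 198, which follows largely from choosing genes by a low p with 3 libraries a group. Of all genes tested 19.3% had groups that did not overlap. At an unadjusted p under 0.05 there were 1959 of the 13055 genes (limma). Genes of the 3 microglial lists described here were 41 of the 183 rises, and immediate early genes were 11 of the 15 falls. Of the 198 genes 86 belonged to 1 of the gene lists described here and 112 to none, and 58 of the genes that rose averaged under 1 FPKM in wildtype. Without EV replicate 3 the count was 164 (155 higher, 9 lower), and 148 of the 198 genes were among them. Leaving out wildtype replicate 1 gave 89 calls, leaving out wildtype replicate 3 gave 129 and leaving out EV replicate 1 gave 105. A core of 83 genes (82 higher and 1 lower) was called whichever of the 6 libraries was dropped. With a trend over gene length removed from each library, 213 genes were called, of which 163 were higher and 50 lower (76.5% higher, against 92.4% as deposited).

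**Figure D2:**
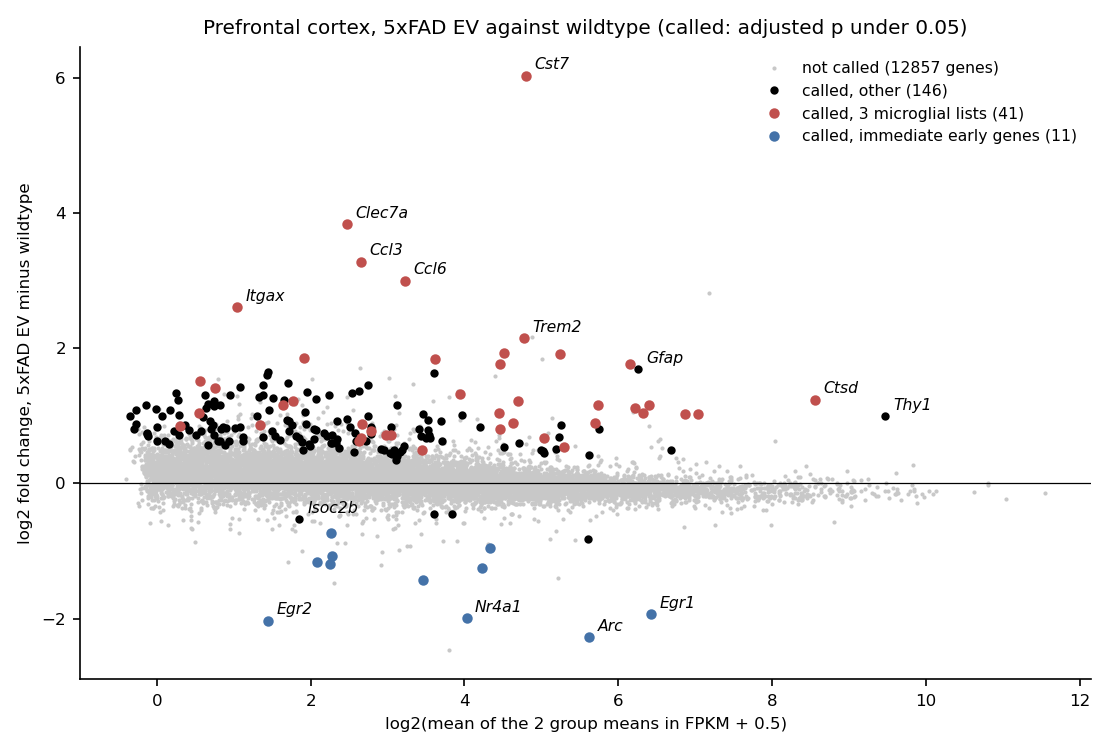
Each point is 1 of the 13055 genes, with the log2 of the mean level (FPKM + 0.5) on the x axis and the log2 fold change of 5xFAD EV over wildtype on the y axis. Red points are 41 called genes of the 3 microglial lists, blue points 11 called immediate early genes and black points the other 146 called genes; Cst7 lies highest at 6.03 and Arc lowest of the called genes at -2.27.

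Thy1, a neuronal surface glycoprotein whose promoter sequence drives the transgenes, stood at 1134, 936 and 768 FPKM in the EV libraries, at 1094, 1151 and 1048 in 5xFAD PBS and at 494, 481 and 433 in wildtype. All 3 EV libraries lay above all wildtype libraries (log2 fold change 0.99, SE 0.14, limma adjusted p = 0.00470), and the gene was called in all 6 fits that left out a library. Whether these reads came from the mouse gene or from transgene transcripts that carry its sequence cannot be told apart. The mouse gene App, which encodes the amyloid precursor protein, did not pass, at 97.9 ± 3.09 FPKM in EV and 103 ± 4.60 FPKM in wildtype libraries (SD, n = 3 each). Thy1, itself no precursor or secretase, was also a member of the list of amyloid precursor and secretase genes. Of the 14 tested members of that list Thy1 alone was called. Of 7 tested genes for amyloid-degrading proteases 1 rose, the plasminogen activator Plau, at 4.24, 3.54 and 2.77 FPKM in EV against 1.07, 1.46 and 0.960 FPKM in wildtype (1.27, limma adjusted p = 0.00312). Cd36, a scavenger and fatty acid receptor that the study's title names as vesicle cargo, stood at 1.47, 0.540 and 0.549 FPKM in EV, at 0.169, 1.04 and 0.991 in 5xFAD PBS and at 0.351, 0.376 and 0.452 in wildtype libraries. All 3 EV libraries lay above wildtype and overlapped 5xFAD PBS, and the gene did not pass against wildtype (0.53, SE 0.33, limma adjusted p = 0.454).

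**Figure D3:**
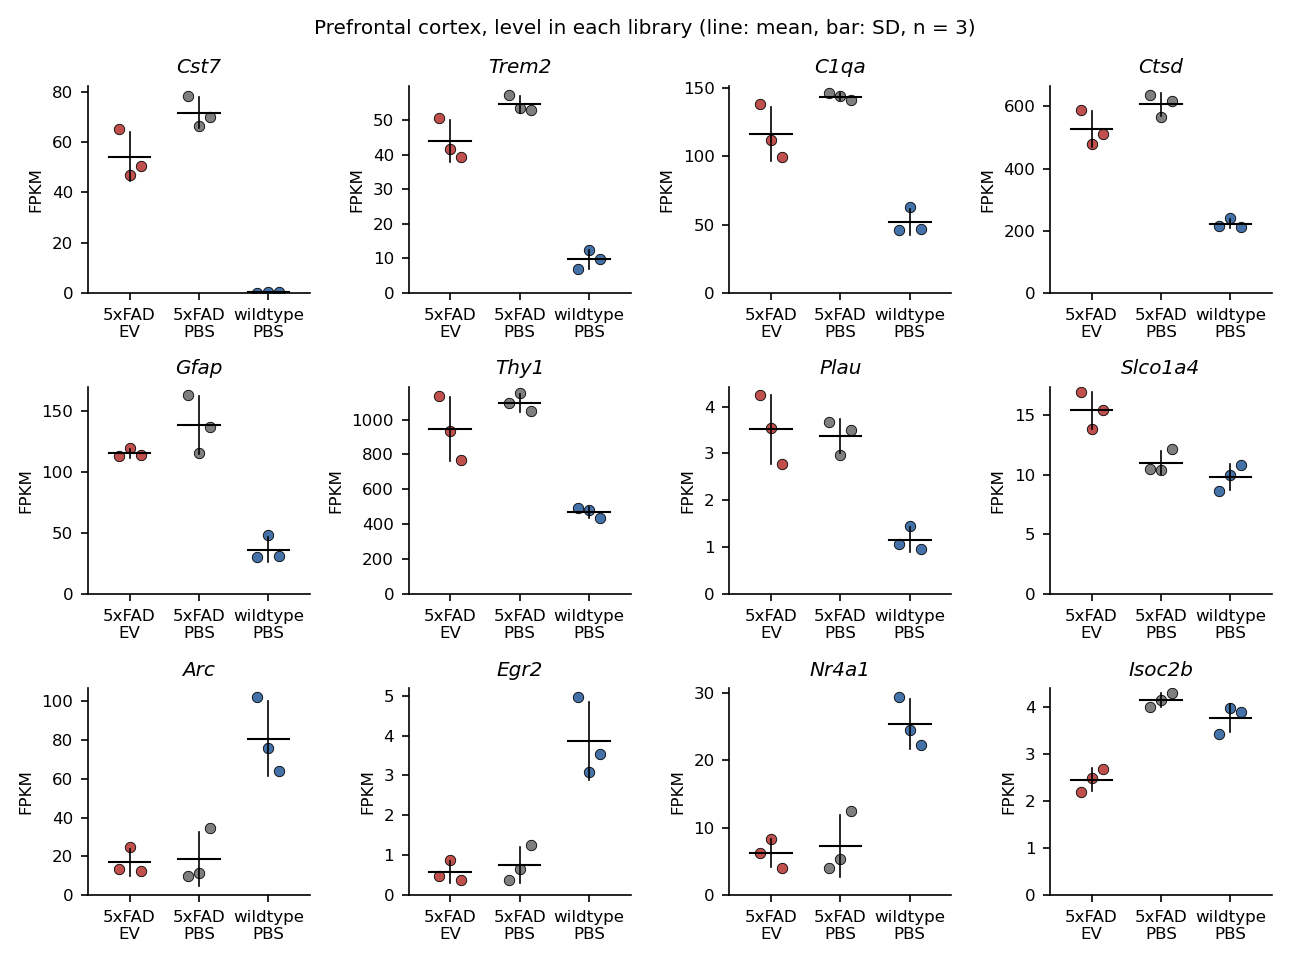
FPKM of 12 genes in each library, with 5xFAD EV left, 5xFAD PBS in the middle and wildtype PBS right; points are libraries, lines are means and bars are SD (n = 3). For the first 8 genes every EV library lies above every wildtype library, and for the last 4 every EV library lies below. Among these last 4, Isoc2b is the gene whose 5xFAD PBS libraries lie with or above wildtype.

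Disease-associated microglial genes were far above wildtype after EV treatment. Of 36 tested members 21 were called higher and none lower, and 31 of the 36 had values above 0. The median log2 fold change was 0.89, against 0.05 over all genes. Without EV replicate 3 the count was 20 with a median of 0.90, and with the length trend removed 1 member was called lower. The largest rise of all genes was that of Cst7, which encodes cystatin F, an inhibitor of lysosomal cysteine proteases. It stood at 65.4, 46.9 and 50.5 FPKM in EV, at 78.4, 66.4 and 70.0 in 5xFAD PBS and at 0.144, 0.324 and 0.586 in wildtype libraries, with as few as 5 reads in wildtype (log2 fold change 6.03, SE 0.18, limma adjusted p = 8.14e-08). The lowest EV library was thus far above the highest wildtype one. Clec7a, the beta-glucan receptor dectin-1, stood at 11.7, 8.54 and 9.35 FPKM in EV against 0.198, 0.267 and 0.205 in wildtype (3.83). Itgax, the integrin chain CD11c, stood at 3.56, 2.42 and 3.13 FPKM in EV against 0.0328, 0.0885 and 0.102 in wildtype (2.61). The chemokine genes Ccl3 (3.28), Ccl6 (3.00) and Ccl4 (1.52) rose with them, as did the phagosomal glycoprotein Cd68 (1.93), lysozyme Lyz2 (1.92), the Toll-like co-receptor Cd180 (1.86) and the surface glycoprotein Cd52 (1.84). Gpnmb (1.22) passed as well (limma adjusted p = 0.0419). Other members that mark the same state had values that did not pass, among them Apoe at 815 ± 26.8 against 742 ± 139 FPKM (0.15, limma adjusted p = 0.576), the lipoprotein lipase Lpl (0.89, limma adjusted p = 0.118), osteopontin Spp1 (0.94, limma adjusted p = 0.166) and galectin-3 Lgals3 (0.83, limma adjusted p = 0.184).

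Promoter sequence of the microglial genes is shown because they had the largest rises and moved together, and that of the early genes because they had the largest falls. The 250 bases before the start site were taken from RefSeq (build GRCm38.p6) and are printed 5′ to 3′ on the gene's strand. The first 5 were chosen by size of change among members with an entry, which Arc lacks here, and C1qc, Cd68 and Dusp1 were added after the search because they hold a match. Capitals mark exact matches, on either strand, to GAGGAAGT (PU.1, a factor that macrophages need), TGAGTCA (AP-1), TGACGTCA (CRE) or TGACG, the first part of CRE, which lies within every CRE match and was added after the sequences had been seen.
Cst7, chr2:150570165-150570414, plus strand: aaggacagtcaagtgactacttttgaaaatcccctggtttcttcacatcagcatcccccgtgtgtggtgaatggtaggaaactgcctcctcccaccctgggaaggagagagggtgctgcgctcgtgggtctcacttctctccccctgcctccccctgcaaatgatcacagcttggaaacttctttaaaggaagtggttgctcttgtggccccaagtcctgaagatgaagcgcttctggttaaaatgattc
Clec7a, chr6:129472780-129473029, minus strand: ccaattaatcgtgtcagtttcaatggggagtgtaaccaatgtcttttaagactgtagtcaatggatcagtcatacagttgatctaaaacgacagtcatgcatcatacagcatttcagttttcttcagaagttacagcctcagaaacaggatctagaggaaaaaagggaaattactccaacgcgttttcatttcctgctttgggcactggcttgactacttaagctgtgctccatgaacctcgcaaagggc
Ccl3, chr11:83649379-83649628, minus strand: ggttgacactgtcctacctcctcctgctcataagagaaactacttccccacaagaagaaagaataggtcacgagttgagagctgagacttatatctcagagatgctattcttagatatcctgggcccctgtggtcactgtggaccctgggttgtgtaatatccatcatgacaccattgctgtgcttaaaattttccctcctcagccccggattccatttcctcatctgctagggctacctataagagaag
Egr2, chr10:67535249-67535498, plus strand: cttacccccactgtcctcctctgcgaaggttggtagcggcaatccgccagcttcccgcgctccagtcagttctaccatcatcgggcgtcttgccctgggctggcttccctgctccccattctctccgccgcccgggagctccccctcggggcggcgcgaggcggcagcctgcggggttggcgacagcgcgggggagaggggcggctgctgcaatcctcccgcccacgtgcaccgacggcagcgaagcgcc
Nr4a1, chr15:101266596-101266845, plus strand: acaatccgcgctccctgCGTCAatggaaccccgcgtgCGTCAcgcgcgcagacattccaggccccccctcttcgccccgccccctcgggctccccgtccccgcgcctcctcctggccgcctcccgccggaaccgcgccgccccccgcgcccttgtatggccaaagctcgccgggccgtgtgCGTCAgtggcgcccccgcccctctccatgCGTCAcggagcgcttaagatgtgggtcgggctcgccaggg
C1qc, chr4:136892915-136893164, minus strand: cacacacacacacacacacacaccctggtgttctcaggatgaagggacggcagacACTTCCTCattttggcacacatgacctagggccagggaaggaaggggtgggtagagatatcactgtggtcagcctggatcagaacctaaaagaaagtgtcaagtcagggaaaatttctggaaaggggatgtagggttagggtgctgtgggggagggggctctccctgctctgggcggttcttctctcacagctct
Cd68, chr11:69666171-69666420, minus strand: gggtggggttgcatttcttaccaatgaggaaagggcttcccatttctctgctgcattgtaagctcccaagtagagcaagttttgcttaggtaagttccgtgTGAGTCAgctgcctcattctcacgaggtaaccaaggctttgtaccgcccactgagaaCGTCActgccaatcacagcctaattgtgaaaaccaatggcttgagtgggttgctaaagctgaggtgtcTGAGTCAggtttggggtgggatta
Dusp1, chr17:26508473-26508722, minus strand: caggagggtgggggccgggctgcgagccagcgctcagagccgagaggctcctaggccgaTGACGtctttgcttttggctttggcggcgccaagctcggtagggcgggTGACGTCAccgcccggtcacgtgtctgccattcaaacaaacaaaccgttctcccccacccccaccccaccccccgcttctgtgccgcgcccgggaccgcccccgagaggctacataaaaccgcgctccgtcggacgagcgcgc
Cst7, Clec7a, Ccl3 and Egr2 held none of these letters in the window, which says nothing of the factors themselves. C1qc held GAGGAAGT at 195 bases before the start, and Cd68 held TGAGTCA at 149 and at 24 bases before it. Nr4a1 held TGACG 4 times, at 233, 213, 69 and 40 bases before the start, and Dusp1 held TGACGTCA at 143 bases. Of the first-listed promoters of 27025 genes, 2.44% held GAGGAAGT, 4.43% TGAGTCA, 1.62% TGACGTCA and 17.86% TGACG, and 0.152% held TGACG 4 times or more. The cut of 4 equals the count in Nr4a1 and, like TGACG, came after the sequences had been seen. That last share is therefore no measure of how unusual Nr4a1 is. Among the 142 genes called higher that have an entry, 12 held GAGGAAGT (8.45%), 8 TGAGTCA (5.63%), 0 TGACGTCA and 23 TGACG (16.20%). Among the 11 called lower, 0 held GAGGAAGT, 0 TGAGTCA, 1 TGACGTCA (9.09%) and 5 TGACG (45.45%). These are matches of letters, counted without a test.

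Markers of microglia in any state rose almost as a whole. Of 17 tested, 15 rose (15 without EV replicate 3), with a median of 1.03. C1qa, a subunit of the complement initiator C1q, stood at 138, 112 and 99.3 FPKM in EV, at 146, 144 and 141 in 5xFAD PBS and at 46.1, 63.2 and 46.5 in wildtype libraries (1.16, limma adjusted p = 0.00217). The EV libraries lay above all wildtype libraries and below all 5xFAD PBS libraries. Mpeg1, a pore-forming protein of macrophages, stood at 41.0, 30.9 and 29.3 FPKM in EV against 9.32, 8.59 and 10.4 in wildtype (1.77). The MD-1 gene Ly86 (1.32), the lysosomal membrane protein Laptm5 (1.22), the transcription factor Irf8 (1.16) and the receptor Csf1r, on which microglia depend for survival (0.67, limma adjusted p = 0.0134), rose too. Spi1, which encodes PU.1 itself (0.72, limma adjusted p = 0.163), and Unc93b1 (0.60, limma adjusted p = 0.107) did not pass. Summed over all 18 microglial markers, the level was 1026, 820.3 and 751 FPKM in EV, 1036, 1028 and 1003 in 5xFAD PBS and 387, 471 and 379 in wildtype libraries.

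Of 16 tested homeostatic genes 5 rose and none fell, with a median of 0.60, but the count was 8 without EV replicate 3, 9 without wildtype replicate 2 and 2 without wildtype replicate 1. Olfml3, a secreted glycoprotein of microglia, stood at 33.7, 28.2 and 24.1 FPKM in EV against 11.4, 17.8 and 12.3 in wildtype (1.04, limma adjusted p = 0.00910). The fractalkine receptor Cx3cr1 stood at 33.2, 26.1 and 23.1 against 13.9, 15.5 and 16.8 FPKM (0.80, limma adjusted p = 0.0121), the oxysterol receptor Gpr183 rose by 0.85, the lectin Siglech by 0.72 and the TGF-beta receptor Tgfbr1 by 0.67. For each of these every EV library lay above every wildtype library. The ADP receptor P2ry12 stood at 37.8, 30.9 and 26.4 against 18.5, 24.8 and 19.0 FPKM and did not pass (0.60, limma adjusted p = 0.0882), and Tmem119 stood at 15.5, 13.1 and 11.5 against 11.3, 13.6 and 11.7 FPKM, with overlap (0.12, limma adjusted p = 0.616).

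Of 12 tested genes of Trem2 signalling 4 rose (4 also without EV replicate 3), with a median of 0.47 (0.34 without EV replicate 3): the receptor, its adaptor and 2 enzymes of the cascade. Trem2 stood at 50.8, 41.6 and 39.5 FPKM in EV, at 57.4, 53.5 and 52.9 in 5xFAD PBS and at 6.95, 12.5 and 9.77 in wildtype libraries (2.15, SE 0.17, limma adjusted p = 2.36e-04). Tyrobp stood at 129.8, 108 and 90.5 against 28.8, 38.3 and 28.7 FPKM in wildtype (1.76). For both genes every EV library lay above every wildtype library and, with the exception of Tyrobp in EV replicate 1, below every 5xFAD PBS library. The exchange factor Vav1 (0.82) and the lipid phosphatase Inpp5d, which limits the pathway (0.58, limma adjusted p = 0.0495, called in 2 of 6 fits without a library), also rose.

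Of 14 tested complement genes 8 rose (8 also without EV replicate 3), with a median of 0.86. C4b, the opsonin precursor C4, stood at 8.59, 8.51 and 8.16 FPKM in EV against 2.53, 3.18 and 3.25 in wildtype (1.36, limma adjusted p = 8.59e-04), and the anaphylatoxin receptor C3ar1 (1.31) and the integrin chain Itgb2 of complement receptor 3 (1.30) rose beside it. Of 10 MHC class I genes 3 rose, the peptide transporter Tap1 (0.81) and the heavy chains H2-D1 (0.80) and H2-K1 (0.54), with 1 called without wildtype replicate 1, 2 without EV replicate 1 or 2, 3 without EV replicate 3 and 5 without wildtype replicate 2. Reads shared between H2 genes make the values of single members uncertain. Of 6 MHC class II genes 1 rose, the invariant chain Cd74, at 15.3, 24.0 and 14.3 FPKM in EV against 5.28, 6.36 and 4.41 in wildtype (1.63, limma adjusted p = 0.00269); without wildtype replicate 2 the count was 5 and without EV replicate 3 it was 1. H2-Aa had the same direction, at 6.09, 10.8 and 6.67 against 2.17, 4.27 and 2.19 FPKM, and did not pass (1.32, limma adjusted p = 0.0568).

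Innate sensors and uptake receptors had fewer calls. Of 16 tested cytokine and NF-kB genes 4 rose: the Toll-like receptors Tlr2 (1.01) and Tlr7 (0.81), the scavenging chemokine Cxcl16 (0.83) and Tgfb1 (0.83); 2 were called without wildtype replicate 1, without wildtype replicate 3 or without EV replicate 1, and 4 without EV replicate 3. Il1b, Tnf and Il6 were below the filter on low values. Of 14 scavenger and phagocytic receptors 3 rose, the Fc receptors Fcgr2b (1.34) and Fcgr1 (0.70) and the lipopolysaccharide co-receptor Cd14, at 4.51, 3.50 and 3.79 FPKM in EV against 1.39, 1.19 and 1.57 in wildtype (1.23); without wildtype replicate 2 it was 5 and without EV replicate 3 it was 4.

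Lysosomal genes rose with 14 of 31 tested members (13 without EV replicate 3, 9 without wildtype replicate 1 or EV replicate 1) and a median of 0.45. Ctsd, the aspartic protease cathepsin D, stood at 589.9, 479 and 513 FPKM in EV, at 638, 566 and 617 in 5xFAD PBS and at 217, 240.4 and 212 in wildtype libraries (1.24, SE 0.10, limma adjusted p = 2.67e-04). The cysteine proteases Ctsz (1.16) and Ctss (1.02) and the lysosomal hydrolase Hexa (0.69) rose, and Grn, which encodes progranulin, rose by 0.86. All 3 EV libraries lay above the wildtype libraries for each of these. Housekeeping members of the organelle stood nearer to wildtype: Lamp1 at 214, 199.8 and 218 against 187, 211 and 186 FPKM (0.12, limma adjusted p = 0.481) and Psap at 759.6, 692 and 707 against 724, 737 and 684 FPKM (0.01, limma adjusted p = 0.968).

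None of the 23 tested type I interferon response genes was called against wildtype (limma; 5 at an unadjusted p under 0.05; voom 1 higher, and 1 higher without wildtype replicate 1 or EV replicate 3). Of all 13055 genes tested, 1959 were at an unadjusted p under 0.05 against wildtype (limma). The median of the 23 was 0.27, against 0.70 for 5xFAD PBS minus wildtype, which shares the wildtype libraries. Irf7, the transcription factor that amplifies the response, stood at 2.23, 3.32 and 2.59 FPKM in EV, at 4.91, 6.51 and 5.58 in 5xFAD PBS and at 4.73, 2.71 and 1.61 in wildtype. Oasl2, a sensor-like protein of double-stranded RNA defence, stood at 2.75, 3.98 and 2.77 in EV, at 6.15, 6.49 and 7.22 in 5xFAD PBS and at 3.49, 4.01 and 1.23 in wildtype. Ifit3 stood at 8.08, 10.8 and 9.48 in EV, at 12.5, 15.4 and 17.3 in 5xFAD PBS and at 9.36, 8.93 and 4.21 in wildtype. For all 3 genes the EV libraries lay below every 5xFAD PBS library and overlapped wildtype, where replicate 3 was the lowest. Set directly against 5xFAD PBS, none of the 23 was called (limma, lowest adjusted p = 0.822; voom also 0). At an unadjusted p under 0.05 there were 15 of the 23, against 4.72% of all genes tested, and 18 had groups that did not overlap, against 10.6% of all genes. The median difference from 5xFAD PBS was -0.42, with 20 values below 0, and -0.45 without EV replicate 3 (9 at an unadjusted p under 0.05, and 4 to 12 over the 6 fits without a library). The exceptions included Rsad2, an antiviral radical SAM enzyme, at 1.83, 2.35 and 2.15 in EV, 1.49, 1.06 and 1.12 in 5xFAD PBS and 2.04, 0.987 and 0.792 FPKM in wildtype. Leaving out wildtype replicate 3 moved the list's median against wildtype to 0.03 and leaving out wildtype replicate 1 moved it to 0.46.

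Reactive astrocyte genes had 2 of 13 tested members higher (1 without wildtype replicate 1 or EV replicate 1, 2 without EV replicate 3), with a median of 0.54 (0.38 without EV replicate 3). Without wildtype replicate 3 there were 2 higher and 1 lower. Gfap, the intermediate filament of astrocytes, stood at 113, 119.7 and 114 FPKM in EV, at 163, 116 and 137 in 5xFAD PBS and at 30.0, 48.1 and 30.8 in wildtype libraries (1.69, limma adjusted p = 8.59e-04). Every EV library lay far above every wildtype library. The acute-phase protease inhibitor Serpina3n stood at 13.8, 13.2 and 11.8 against 6.75, 8.79 and 6.31 FPKM (0.80, limma adjusted p = 0.0118). Of 14 general astrocyte markers none was called (limma; 3 at an unadjusted p under 0.05; voom also 0). Over all 13055 genes tested the count at that unadjusted cut was 1959 (limma). The glutamine synthetase Glul averaged 756 ± 69.2 FPKM in EV and 835 ± 107 FPKM in wildtype, and Aldoc 376 ± 57.5 against 341 ± 57.8 FPKM. Of these 14 markers 6 had their highest level of all 18 libraries in EV replicate 3.

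Of 24 genes of cholesterol synthesis and uptake 3 rose, with a median of 0.15 (3 and 0.25 without EV replicate 3). Among them were the cholesterol carrier Stard4 (0.56, limma adjusted p = 0.0196) and Insig1, which holds back the SREBP factors in the endoplasmic reticulum (0.48, limma adjusted p = 0.00786). For both every EV library lay above every wildtype library. The count was 1 without wildtype replicate 1 and 2 without EV replicate 1 or wildtype replicate 2.

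Vascular markers gave small differences. Of 14 tested endothelial genes 2 rose, the anion transporter Slco1a4 and the efflux pump Abcb1a, with a median of 0.31; 1 was called without EV replicate 3 (median 0.27) and none without wildtype replicate 1 or without EV replicate 1. Slco1a4 stood at 16.9, 13.8 and 15.4 FPKM in EV, at 10.5, 10.4 and 12.1 in 5xFAD PBS and at 8.61, 10.0 and 10.8 in wildtype (0.62, limma adjusted p = 0.0188). Abcb1a stood at 9.85, 8.65 and 9.72 in EV, at 7.11, 6.41 and 8.12 in 5xFAD PBS and at 6.17, 6.67 and 6.86 in wildtype (0.49, limma adjusted p = 0.0478, called in 0 of 6 fits without a library). For both the EV libraries lay above all others. The median endothelial value was 0.31 against 5xFAD PBS as well, with 10 of 14 at an unadjusted p under 0.05 and none called (limma, lowest adjusted p = 0.822; voom also 0), while 5xFAD PBS minus wildtype had a median of -0.00. Cldn5, a tight junction protein of the same cells, overlapped in all groups, at 23.3, 15.3 and 19.0 in EV, 15.2, 21.1 and 15.4 in 5xFAD PBS and 19.4, 18.2 and 14.0 FPKM in wildtype. None of 11 tested mural cell genes was called against wildtype (median 0.47, and 0.38 without EV replicate 3; limma, 7 at an unadjusted p under 0.05; voom 1, and 1 without wildtype replicate 2). Over all 13055 genes tested the counts at that unadjusted cut were 1959 against wildtype and 616 against 5xFAD PBS (limma). Red cell genes, which blood left in vessels would carry, summed to more in EV replicates 1 and 3 than in 6 of the other 7 libraries. Their part in the vascular values was not tested.

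**Figure D4:**
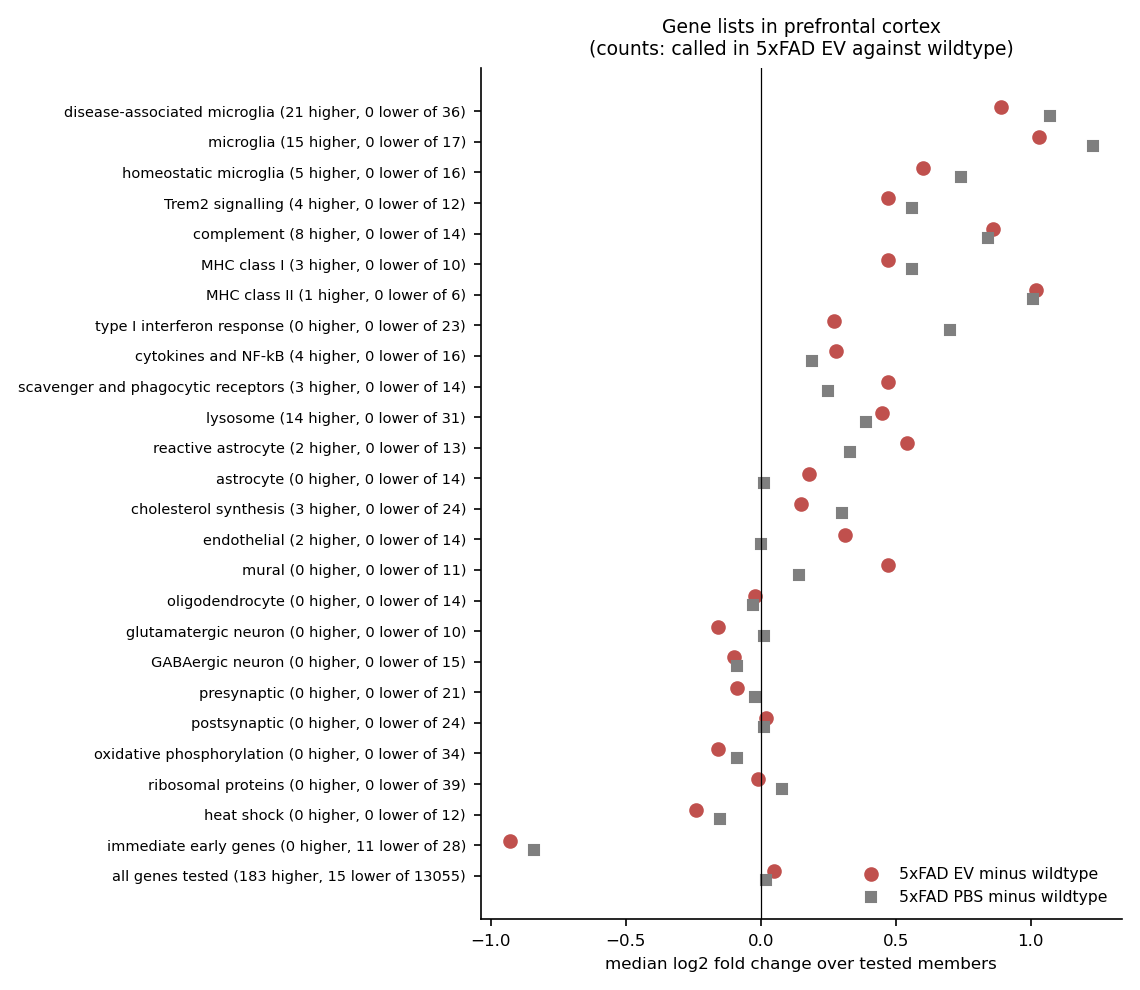
Median log2 fold change over the tested members of 25 gene lists and over all genes, for 5xFAD EV minus wildtype (red circles) and 5xFAD PBS minus wildtype (grey squares); both use the same wildtype libraries. Counts beside each name are genes called in 5xFAD EV against wildtype; the microglial, complement and lysosomal lists lie to the right and immediate early genes lie at -0.93.

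Of 28 tested immediate early genes 11 fell and none rose, with a median of -0.93. The list rested on single libraries for its calls: 1 member was called without wildtype replicate 1, 4 without EV replicate 1 and 5 without EV replicate 3, while the median stayed between -0.75 and -1.06 in the 6 fits. Arc, which encodes a synaptic protein that drives removal of glutamate receptors, stood at 13.4, 24.8 and 12.3 FPKM in EV, at 9.65, 11.2 and 34.8 in 5xFAD PBS and at 102, 76.1 and 64.1 in wildtype libraries (log2 fold change -2.27, SE 0.43, limma adjusted p = 0.0281, and 0.0829 without EV replicate 3). It was called in 1 of 6 fits without a library. Egr2, a zinc finger factor, stood at 0.471, 0.881 and 0.374 FPKM in EV, at 0.373, 0.644 and 1.26 in 5xFAD PBS and at 4.96, 3.09 and 3.53 in wildtype (-2.03, SE 0.27, limma adjusted p = 0.00391). Its fall was the one that was called in all 6 fits without a library.

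Egr1, the most abundant of the fallen factors, stood at 29.3, 51.2 and 26.9 FPKM in EV against 167, 122 and 114 in wildtype (-1.93, limma adjusted p = 0.00835, called in 5 of 6 fits). The orphan receptor Nr4a1, whose promoter holds the repeated TGACG, stood at 6.25, 8.31 and 4.08 against 29.4, 24.5 and 22.2 FPKM (-1.99, limma adjusted p = 0.0188, called in 2 of 6 fits). No EV library overlapped wildtype for these genes, and EV replicate 2 was the highest of the 3 for each. Egr4 (-1.43), the MAP kinase phosphatases Dusp1 (-1.25) and Dusp6 (-0.95) and the AP-1 members Fosb (-1.20) and Fosl2 (-1.08) fell too. The receptor Nr4a3 (-1.16) and the neurotrophin Bdnf (-0.73) completed the 11. Dusp1 was called in 0 of 6 fits, Bdnf in 1, Fosl2 and Dusp6 in 2, Egr4 in 4, and Fosb and Nr4a3 in 5. Fos had the largest fitted difference of the list, at 1.81, 6.92 and 3.58 FPKM in EV against 26.4, 24.4 and 17.4 in wildtype, but its EV libraries varied and it did not pass (-2.47, limma adjusted p = 0.0652). Not all early genes differed: Jun stood at 13.4, 12.6 and 17.0 against 15.1, 16.4 and 15.4 FPKM (-0.13, limma adjusted p = 0.659). Dusp5 stood at 4.83, 4.82 and 12.4 FPKM in EV and at 6.48, 6.23 and 4.92 in wildtype, high in the library with cerebellar transcripts.

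The other 4 falls lay outside every list. Vgf, a secreted neuropeptide precursor that activity induces, stood at 38.9, 41.2 and 24.6 FPKM in EV against 70.4, 58.7 and 54.6 in wildtype (-0.83, limma adjusted p = 0.0495, called in 2 of 6 fits). Spry2, which dampens growth factor signalling, was lower at -0.45 (limma adjusted p = 0.0478, called in 0 of 6 fits) and Snx16, of endosomal sorting, at -0.45 (limma adjusted p = 0.0303, called in 1 of 6 fits). Isoc2b, an isochorismatase domain protein, differed in pattern: it stood at 2.19, 2.48 and 2.68 FPKM in EV, at 4.0, 4.14 and 4.29 in 5xFAD PBS and at 3.42, 3.96 and 3.88 in wildtype (-0.53, SE 0.10, limma adjusted p = 0.0330, called in 1 of 6 fits). All EV libraries lay below all other libraries, and 5xFAD PBS lay at or above wildtype. Among the rises outside the lists were the receptor Slamf9, at 4.46, 3.21 and 3.30 FPKM in EV against 0.844, 0.864 and 0.720 in wildtype (1.65, limma adjusted p = 8.59e-04).

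Neuronal and myelin lists had no calls against wildtype (limma, at most 2 genes of a list at an unadjusted p under 0.05; voom also 0; 1 GABAergic gene without wildtype replicate 2). Glutamatergic markers had a median of -0.16 over 10 genes and -0.00 without EV replicate 3, in which Camk2a was lowest (665, 493 and 381 FPKM in EV against 553, 522 and 532 in wildtype). GABAergic markers had a median of -0.10 over 15 genes and of 0.03 without EV replicate 3, with somatostatin Sst at 229.8, 248 and 132 FPKM in EV against 301, 329.9 and 271 in wildtype, lower in all 3 EV libraries and short of the threshold (-0.61, limma adjusted p = 0.235, and -0.33 without EV replicate 3). Presynaptic genes had a median of -0.09 over 21 genes and postsynaptic genes 0.02 over 24 (-0.03 with median-of-ratios scaling and -0.10 with the length trend removed), oligodendrocyte genes -0.02 over 14 and oligodendrocyte precursors 0.08 over 10. Oxidative phosphorylation genes had a median of -0.16 over 34, heat shock genes -0.24 over 12, endoplasmic reticulum chaperones -0.23 over 16, glycolysis genes -0.11 over 15 and ribosomal proteins -0.01 over 39. Heat shock genes had 5 and chaperones 7 members at an unadjusted p under 0.05, where all 13055 genes tested had 1959 (limma). None of these members was called by limma or voom, and 1 and 2 were called without wildtype replicate 3. Leaving out 1 library at a time moved several of these medians across 0. They ranged over -0.34 to -0.00 for glutamatergic, -0.23 to 0.03 for GABAergic, -0.06 to 0.06 for postsynaptic, -0.15 to 0.05 for oligodendrocyte, -0.02 to 0.15 for precursor and -0.10 to 0.13 for ribosomal protein genes. Presynaptic genes ranged over -0.15 to -0.02 (the value without EV replicate 3), oxidative phosphorylation over -0.20 to -0.05, heat shock over -0.32 to -0.18, chaperones over -0.32 to -0.12 and glycolysis over -0.16 to -0.10. Striatal neuron markers, which varied within every group, had a median of -0.62 over 13 genes, with 0 values above 0. That median was -1.36 without EV replicate 2 (limma, 11 at an unadjusted p under 0.05) and -0.08 without EV replicate 1 (0). In all, 32 of the 48 lists had no gene called. Over all genes tested 1.52% were called, so that a list of this length without a call lies near that share.

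The EV libraries were also set directly against 5xFAD PBS, since both comparisons with wildtype use the same wildtype libraries and cannot show a difference between treatments. No gene was called (limma, lowest adjusted p = 0.822; 616 genes, 4.72%, at an unadjusted p under 0.05; voom on recovered reads also 0, with 636). Without 5xFAD PBS replicate 1 a single gene passed, the microglial lectin receptor Clec4e (1.52, limma adjusted p = 0.0471), which was named for that reason after its values were seen. For 65 named genes called against wildtype, the difference of EV from 5xFAD PBS ranged from -0.66 (Isoc2b) to 0.46 (Slco1a4). The same EV libraries enter the calls that chose these genes, so the range is no independent measure of treatment. The 95% interval included 0 in 55 of the 65 genes. At the median it reached 0.31 to either side of the estimate, so that smaller differences would mostly not be seen with 3 libraries a group. The interval is not adjusted for the number of genes tested, so that larger differences could go uncalled too. Isoc2b, at -0.66, was not called (limma adjusted p = 0.822). For Trem2 the difference was -0.32 with an interval of -0.70 to 0.07, beside 2.15 against wildtype, and for Clec7a it was -0.19 (-0.45 to 0.07), beside 3.83. For Cst7 it was -0.41 (-0.81 to -0.01) and for Cd52 -0.60 (-0.94 to -0.27), with 20.5, 19.3 and 16.2 FPKM in EV, 27.7, 26.8 and 31.3 in 5xFAD PBS and 3.67, 5.90 and 5.19 in wildtype. For Arc the interval was wide, -0.92 to 0.98 around 0.03. Disease-associated microglial genes had a median difference from 5xFAD PBS of -0.15, with 26 of 36 below 0 and 2 at an unadjusted p under 0.05. Leaving out 1 library gave -0.19 without EV replicate 1 (12 at an unadjusted p under 0.05) to -0.08 without EV replicate 3 (1). Microglial markers had a median difference of -0.23, with 17 of 17 below 0 and 4 at an unadjusted p under 0.05, and -0.35 without EV replicate 1 (12) to -0.15 without EV replicate 3 (0). Immediate early genes had a median difference of -0.13, with 19 of 28 below 0, and -0.29 without 5xFAD PBS replicate 1 to 0.08 without 5xFAD PBS replicate 3. The median over all genes was 0.02.

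**Figure D5:**
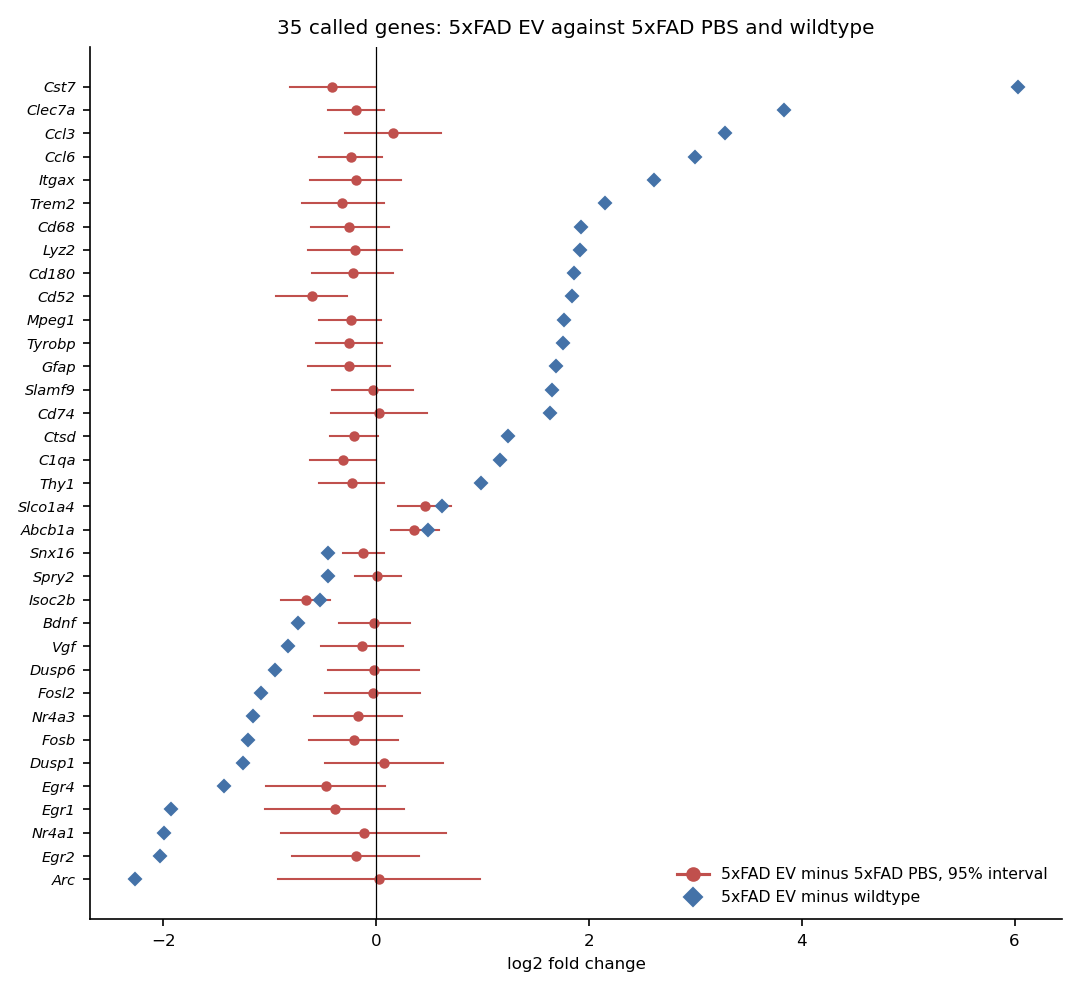
For 35 called genes, red points and bars give the log2 fold change of 5xFAD EV over 5xFAD PBS with its 95% interval (limma, not adjusted), and blue diamonds give the log2 fold change of 5xFAD EV over wildtype. Most red bars lie across 0 while the diamonds spread between -2.27 and 6.03. The bars of Cd52 and Isoc2b lie below 0, and those of Slco1a4 and Abcb1a above it. The bars of Cst7 and C1qa also lie below 0, with upper ends at -0.01 and -0.00.

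Last, the difference of EV-treated 5xFAD from wildtype was compared between prefrontal cortex and hippocampus in 1 fit over all 18 libraries. None of 13574 genes was called for the difference between tissues (limma, lowest adjusted p = 0.975; 561 at an unadjusted p under 0.05; voom also 0, with 545). This fit treated the 18 libraries as independent, and the labels do not say whether the same replicate number in both tissues marks the same mouse. With group and replicate number as a block the count was also 0, with 667 at an unadjusted p under 0.05. Cst7 averaged 54.3 ± 9.78 FPKM in EV against 0.351 ± 0.222 in wildtype prefrontal cortex, and 108 ± 65.8 against 0.281 ± 0.124 FPKM in hippocampus (SD, n = 3 each; difference between tissues -0.95, limma adjusted p = 0.975). Cd74 averaged 17.9 ± 5.36 against 5.35 ± 0.977 FPKM in prefrontal cortex and 42.3 ± 16.9 against 5.47 ± 3.19 FPKM in hippocampus (-1.29, limma adjusted p = 0.975). Arc averaged 16.8 ± 6.94 against 80.7 ± 19.3 FPKM in prefrontal cortex and 20.3 ± 3.82 against 52.1 ± 9.01 FPKM in hippocampus (-0.94, limma adjusted p = 0.975). The hippocampal EV libraries varied more than the cortical ones for Cst7 and Cd74.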

How the data were processed

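Bulk RNA sequencing libraries of prefrontal cortex and hippocampus were analysed from the authors' table of FPKM per gene. The deposited FPKM values were made with fastp, HISAT2 and HTSeq on GRCm39, per the submitters' processing notes, which give no versions; for annotation and strand, the setting is not given in the sources used here. Groups came from the sample titles, and all 18 columns matched a sample by name.

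FPKM is no count, so limma 3.58.1 (R 4.3.3) was run on log2(FPKM + 0.5), with a mean per group over the 9 prefrontal cortex libraries, eBayes with an intensity trend, two-sided tests and Benjamini-Hochberg adjustment. The pseudocount understates changes of low genes. Genes needed 0.5 FPKM in 3 libraries. Whole reads were recovered from the FPKM steps for 100.0% of genes (relative tolerance 1e-06) and used with voom as an alternative. They give 30581316 to 36365571 reads a library in prefrontal cortex, so that sampling of reads limits genes well under 0.5 FPKM. The fit was run on simulated counts with the same dispersion for every gene and no outlying library, a setting that these libraries do not match.

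Named genes were App, Thy1, Cd36, the 15 largest rises and 15 largest falls among called genes (no overlap, at least 1 FPKM in the higher group, no unnamed models), and up to 4 called members per list; other list members are named with values beside them. Some genes are not reported here. Comparisons, lists (47, plus 1 added after seeing the data) and genes were chosen with earlier results of these data known. Lists are described by counts and medians, without a set test. Promoter sequences come from RefSeq (GRCm38.p6), another build than the values. Replicates differed by more than sampling noise (chi-square per gene 11.2 to 82.2). Alternatives covered the pseudocount, filters, scaling, gene length, variance trend, libraries in the fit, a replicate block and leaving out each library.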

Additional observations from a re-analysis of the deposited data

How the results depend on the processing

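The 198 calls against wildtype numbered 206 and 187 with pseudocounts of 0.1 and 1, 165 without a filter, 181 with a filter of 1 FPKM, 173 with median-of-ratios scaling, 213 with the trend over gene length removed, 227 with voom and 251 without the intensity trend. They numbered 118 when the 5xFAD PBS libraries were left out of the fit. Leaving out 1 library at a time gave 89 to 229 calls. The direct comparison with 5xFAD PBS gave 0 to 1 call when 1 library was left out and 0 in the other alternatives, and the difference between tissues gave 0 in each. For 5xFAD PBS against wildtype, whose values stand beside the others, 256 genes were called, and 142 to 218 when 1 library was left out. No called gene changed sign when 1 of the 6 libraries was left out. With the replicate number as a block 204 genes were called against wildtype, 0 against 5xFAD PBS and 218 for 5xFAD PBS against wildtype. Same-numbered EV and wildtype libraries deviated from their group means with correlations of 0.252, -0.128 and 0.0490. The labels do not say whether they share more than a number, and 3 correlations cannot decide it. Same-numbered 5xFAD PBS and wildtype libraries correlated at 0.213, 0.509 and 0.169. With 3 libraries a group, and 1 EV library that carries transcripts of other tissue, small changes cannot be resolved, and genes near 0.5 FPKM rest on few reads.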

Other observations

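Values that belong to no comparison above concern cells that enter from blood or vessels. Neutrophil and monocyte markers summed to 13.1, 1.85 and 5.03 FPKM in EV, 2.10, 3.74 and 2.97 in 5xFAD PBS and 1.80, 0.337 and 1.48 in wildtype prefrontal cortex. S100a8, an alarmin of neutrophils, stood at 4.25, 0.665 and 1.53 FPKM in EV against 0.580, 0 and 0.351 in wildtype and did not pass (1.54, limma adjusted p = 0.154); 2 of the 3 tested members of this list were called without EV replicate 2. Border macrophage markers summed to 4.54, 5.47 and 7.07 FPKM in EV, 4.12, 6.98 and 6.73 in 5xFAD PBS and 4.35, 5.96 and 4.81 in wildtype, so that the groups overlapped. T cell markers likewise overlapped, at 0.974, 5.10 and 1.42 in EV, 3.28, 2.77 and 4.08 in 5xFAD PBS and 1.23, 1.92 and 4.09 FPKM in wildtype. Contractile genes of mural cells did not pass. Myh11 stood at 1.87, 1.71 and 2.87 FPKM in EV, 0.978, 1.18 and 1.50 in 5xFAD PBS and 0.879, 1.03 and 1.05 in wildtype (0.81 against wildtype, limma adjusted p = 0.0532). Acta2 stood at 6.61, 7.94 and 11.4 in EV, 3.83, 6.03 and 6.67 in 5xFAD PBS and 4.50, 5.20 and 4.04 FPKM in wildtype, where EV replicate 1 overlapped 5xFAD PBS. The EV library with cerebellar and choroid plexus transcripts was the highest for both genes.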
